A study of Mus musculus with 51 samples.

Results

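The 10 genes described here, *Snai1*, *Snai2*, *Zeb1*, *Zeb2*, *Twist1*, *Cdh1*, *Cdh2*, *Cdh11*, *Epcam* and *Vim*, are genes of the epithelial-to-mesenchymal transition (EMT). They were selected by symbol, and all 10 were found among the 24538 genes of each of the 9 RNA-seq tables. During gastrulation, cells of the epiblast lose their cell-cell junctions in the primitive streak and migrate away as mesoderm, and this change from epithelium to mesenchyme is driven by transcription factors that bind E-box sequences. The zinc finger repressors *Snai1* and *Snai2*, the zinc finger homeodomain factors *Zeb1* and *Zeb2* and the basic helix-loop-helix factor *Twist1* repress *Cdh1*, which encodes E-cadherin, and other epithelial genes. N-cadherin (*Cdh2*), cadherin 11 (*Cdh11*) and the intermediate filament protein vimentin (*Vim*) are typical of mesenchymal cells, whereas the adhesion molecule *Epcam* is typical of epithelial and pluripotent cells.

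Mouse ES cells were differentiated with Bmp4 (20 ng/ml) toward cardiac mesoderm, and RNA was profiled in 18 of the 51 samples of the study. WT cells of the F1G4 line were profiled as feeder-depleted aggregates (ES, before Bmp4) and after 1, 2 and 3 days with Bmp4, with 2 samples at each stage. Cells lacking *Eomes* (*Eomes* KO), *T* (*T* KO) or both genes (dKO) were profiled on days 2 and 3. *Smad4* KO cells were profiled on days 1 and 2 together with the parental 129S/SvEvxC57BL/6 line, labelled Smad4 WT. Lines other than F1G4 WT had 1 sample per line and day by the labels. The legends of the study describe its RNA-seq values as averages over replicates, so how many libraries each KO value rests on is not settled. *Eomes* and *T* encode T-box transcription factors of the primitive streak, and *Smad4* encodes the shared partner of the Smads activated by BMP and Nodal. The *Eomes* and *T* alleles lack the promoter and the first exon, the dKO line was derived from the *Eomes* KO line, and *Smad4* KO cells lack the first exon after Cre excision of a floxed allele. Each KO line is an expanded clone.

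Expression is given as FPKM, fragments normalised to transcript length and library size, which allows levels of different genes to be compared per length. The tables hold 1 value for each gene and condition, so no spread between replicates and no test could be computed, and every difference below lacks a replicate check. By the rule of size used in the study, a comparison covered the genes above FPKM 1 in one condition or both, and such a gene was called higher or lower at a log2 ratio beyond 1 or -1. The words rose and fell are used for called genes. The low values of FPKM times transcript length fell on regular steps in the 10 columns of KO cells and of the *Smad4* line, where 74.3 to 82.4% of them lay near whole multiples of one step (30% by chance at the tolerance used), which corresponds to 17.9 to 37.3 M fragments per column. In the F1G4 WT columns the steps were less regular (49.6 to 58.4%) and corresponded to 50.0 to 55.5 M fragments. From these steps the fragments behind a value were estimated, and intervals given below for a log2 ratio are exact 95% intervals that cover counting error only.

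The targeted genes showed *Eomes* at FPKM 0.276 in *Eomes* KO and 0.346 in dKO cells on day 3 (19.4 in WT), and *T* at 3.00 in *T* KO and 1.93 in dKO cells (319.9 in WT). More signal remained on day 2, with *Eomes* at 2.42 in *Eomes* KO and 1.24 in dKO cells (9.50 in WT). *T* was then at 6.64 in *T* KO and 2.77 in dKO cells (43.5 in WT). On day 2 *Smad4* itself was at 46.8 in *Smad4* KO and 39.3 in Smad4 WT cells, but the level of the whole gene does not report on the loss of its first exon. Of 8 pluripotency markers, 8 were above FPKM 1 in ES cells, and of 9 nascent mesoderm markers, 7 were above FPKM 1 in WT cells on day 3. On day 3, 7 of the 8 pluripotency markers were also still above FPKM 1 in WT cells and in each KO line. Their sum in WT cells was 2386 at the ES stage and 1152 on day 3. Single columns stood apart in how ratios to WT varied with transcript GC content and length. The median log2 ratio of the top quartile in GC content exceeded that of the bottom quartile by 0.21 in *T* KO cells on day 2. For transcript length the difference between the same quartiles was 0.40 in *Eomes* KO cells on day 3 and -0.54 in dKO cells on day 2. As RNA was taken from whole cultures, fewer cells that express a gene and less RNA per cell cannot be told apart for any gene below.

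Sequences upstream of the start site were taken from RefSeq (GRCm38.p6) for the 5 members that were found there, *Snai1*, *Twist1*, *Epcam*, *Vim* and *Zeb2*, the last with 4 start sites. The windows of 250 bases before the start were searched on both strands for the T-box motif AGGTGT, which reads ACACCT on the other strand and is bound by T-box factors such as those encoded by *Eomes* and *T*, for the E-box CACCTG, which reads CAGGTG on the other strand and is bound by the Snail and Zeb families, and for the Tcf/Lef core CTTTGA, which reads TCAAAG on the other strand. Over 32851 mouse promoter windows of this length, 11.8% held the T-box motif, 17.2% the E-box and 13.8% the Tcf/Lef core. The windows of *Twist1*, *Snai1*, *Epcam* and *Vim* are printed because these genes span the patterns described below, with a factor that moved in opposite directions by day, a factor near the detection limit, a steady epithelial gene and the mesenchymal gene with the highest level. They are given 5′ to 3′ with T-box motifs and E-boxes in capitals.
*Twist1*, chr12:33957421-33957670, plus strand: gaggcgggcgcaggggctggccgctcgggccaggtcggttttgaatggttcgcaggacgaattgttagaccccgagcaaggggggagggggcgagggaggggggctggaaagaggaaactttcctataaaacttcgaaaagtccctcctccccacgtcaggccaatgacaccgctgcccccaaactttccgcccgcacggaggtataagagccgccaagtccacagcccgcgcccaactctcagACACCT
*Snai1*, chr2:167537945-167538194, plus strand: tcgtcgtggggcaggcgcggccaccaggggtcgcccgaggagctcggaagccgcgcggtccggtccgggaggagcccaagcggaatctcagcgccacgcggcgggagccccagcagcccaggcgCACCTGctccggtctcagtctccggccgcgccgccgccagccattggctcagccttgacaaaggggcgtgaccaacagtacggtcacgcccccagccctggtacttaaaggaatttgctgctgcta
*Epcam*, chr17:87635729-87635978, plus strand: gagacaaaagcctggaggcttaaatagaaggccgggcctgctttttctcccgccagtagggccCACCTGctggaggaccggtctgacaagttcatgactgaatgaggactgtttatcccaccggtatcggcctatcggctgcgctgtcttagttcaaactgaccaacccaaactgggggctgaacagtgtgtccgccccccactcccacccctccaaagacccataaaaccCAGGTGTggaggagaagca
*Vim*, chr2:13574061-13574310, plus strand: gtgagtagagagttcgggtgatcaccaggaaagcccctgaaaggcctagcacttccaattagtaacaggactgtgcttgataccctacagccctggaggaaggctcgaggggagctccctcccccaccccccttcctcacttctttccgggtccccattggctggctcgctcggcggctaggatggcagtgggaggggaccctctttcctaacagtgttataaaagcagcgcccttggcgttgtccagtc
*Twist1* held a T-box motif that starts 6 bases before the start site, and *Snai1* an E-box 126 bases before it. *Epcam* held E-boxes 187 and 19 bases before its start, and a T-box motif 18 bases before it that overlaps the second E-box in all but one base. None of the 3 motifs was found in the windows of *Vim* and *Zeb2*, and the Tcf/Lef core was found in none of the 8 windows searched. A match of 6 letters describes the sequence and does not show binding.

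The time course of WT cells asks how the EMT genes behave as ES cells become mesoderm. The mesenchymal genes rose between days 2 and 3, whereas *Cdh1* and *Epcam* were at nearly the same level at every stage. *Vim* had FPKM values of 46.3, 32.8, 41.2 and 265 in ES cells and after 1, 2 and 3 days, a 6.43-fold rise in the last day (log2 2.68, interval 2.64 to 2.73). *Cdh2* was at 1.55, 1.75, 1.12 and 5.56 at the same stages and rose 4.98-fold between days 2 and 3 (log2 2.32, 2.13 to 2.51). *Cdh11* was at 0.0184, 0.0912, 0.159 and 1.09, with a rise of 6.89-fold in the last day (log2 2.78, 2.33 to 3.31). All 3 genes had their highest WT level on day 3, and *Cdh11* passed FPKM 1 only then, with an estimated 5 fragments in ES cells and 294 on day 3.

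The epithelial genes stayed high. *Cdh1*, at FPKM 139, 147, 165 and 138 over these stages, differed by no more than 1.20-fold between consecutive stages. *Epcam*, at 234, 249.9, 234 and 247, differed by no more than 1.07-fold. Day 3 cells thus contained RNA of *Epcam* and of *Vim* at similar levels per length, and *Cdh1* RNA at a level above that of *Cdh2*.

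The EMT transcription factors were low throughout, and *Twist1* had the highest level of the 5 from day 1 on. *Twist1* was at FPKM 0.836, 1.38, 2.81 and 4.44 over the same stages, rose 2.04-fold between days 1 and 2 (log2 1.03, 0.71 to 1.37) and 5.31-fold over the whole course (log2 2.41, 2.04 to 2.77). The call between days 1 and 2 was lost with a pseudocount of 0.1 (log2 0.98) or 1 (0.68) and after removal of GC and length trends (0.92). *Zeb2* was at 0.292, 0.165, 0.554 and 2.39 and rose 4.32-fold between days 2 and 3 (log2 2.11, 1.92 to 2.31). *Zeb1* moved the other way at first: from 1.39 in ES cells it fell to 0.486 on day 1 (log2 -1.51, -1.79 to -1.24), was at 0.215 on day 2 and at 0.705 on day 3. The Snail genes never reached FPKM 1 in WT cells. *Snai1* was at 0.0787, 0.0517, 0.137 and 0.587, with an estimated 7, 4, 11 and 50 fragments, and *Snai2* at 0.131, 0.0213, 0.0700 and 0.883, with 15, 2, 7 and 94 fragments. Neither was examined under the rule. Between days 2 and 3 the log2 ratios were 2.101 (1.18 to 3.23) for *Snai1* and 3.66 (2.61 to 5.06) for *Snai2*. These intervals rest on few fragments, estimated in columns whose steps were less regular.

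**Figure D1:**
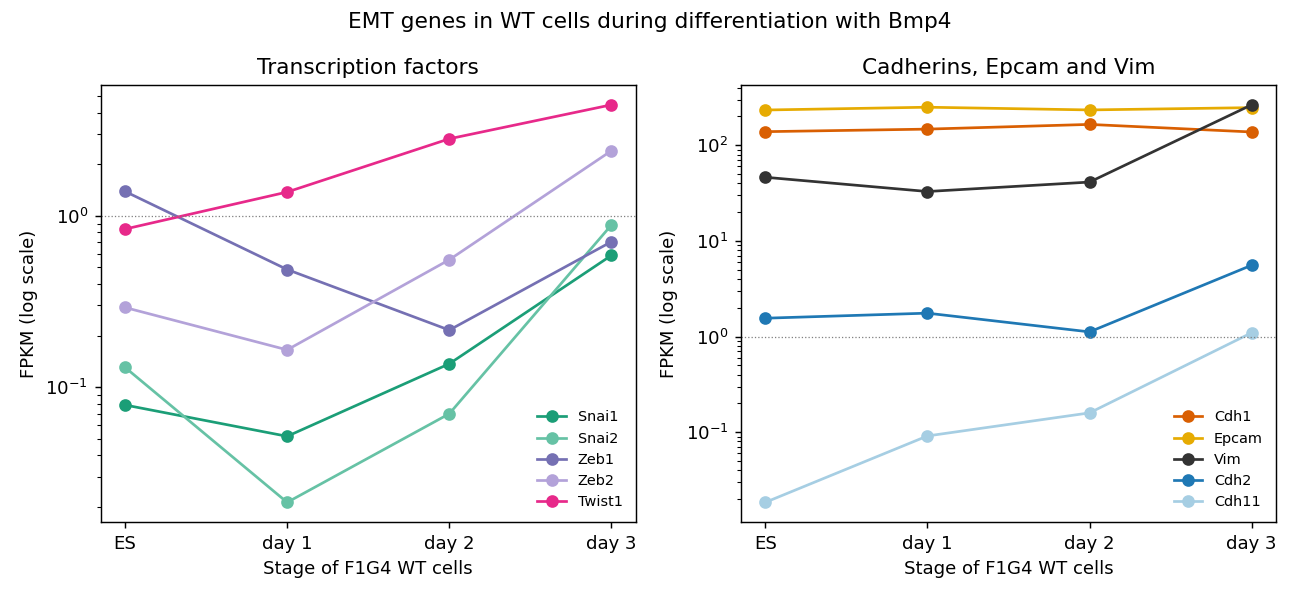
FPKM (log scale) of the 5 EMT transcription factors (left) and of the cadherins, *Epcam* and *Vim* (right) in F1G4 WT cells at the ES stage and on days 1, 2 and 3, with 1 deposited value per point and a dotted line at FPKM 1. *Epcam* and *Cdh1* run flat near the top of the right panel, and *Vim* reaches them on day 3, when *Cdh2* and *Cdh11* are also at their highest.

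Counted over the members, 1 of 10 was called between ES cells and day 1 (lower; 13.5% of all genes examined were called), 1 between days 1 and 2 (higher; 11.3%), and 4 between days 2 and 3 (*Vim*, *Cdh2*, *Cdh11* and *Zeb2*, all higher; 10.2%). Between ES cells and day 3, 5 of 10 were called, all higher (31.1%), namely the same 4 and *Twist1*. Only 6, 5, 7 and 8 of the 10 members were examined in these comparisons, of which 16.7%, 20%, 57.1% and 62.5% were called. The shares of the first and second day rest on 1 gene each. The median log2 ratio of the 10 members, with 0.1 added to each FPKM, was 1.73 from day 2 to day 3 and 2.02 from ES cells to day 3, beside medians of 0.01 and -0.02 over all genes examined. The nascent mesoderm markers were higher as well, going from a summed FPKM of 71.5 on day 2 to 423 on day 3. Embryo fibroblast markers, which would mark feeder cells left in the cultures, summed to 0.885 in ES cells and 8.07 on day 3, where 3 of 12 were above FPKM 1. Their part in the rise of *Vim* was not tested.

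The ratio of *Cdh2* to *Cdh1* within a condition, and that of *Vim* to *Epcam*, do not depend on how libraries were scaled. In WT cells *Cdh1* exceeded *Cdh2* by 89.2-fold, 84.1-fold, 148-fold and 24.7-fold from ES cells to day 3. *Epcam* exceeded *Vim* by 5.05-fold, 7.61-fold and 5.68-fold at the first 3 of these stages, and on day 3 *Vim* exceeded *Epcam* by 1.07-fold. That was the only one of the 14 conditions in which *Vim* was above *Epcam*. In no condition did *Cdh2* come near *Cdh1*. On day 3 *Cdh1* exceeded *Cdh2* by 188-fold in *Eomes* KO, 967-fold in *T* KO and 353-fold in dKO cells, and *Epcam* exceeded *Vim* by 2.92-fold, 6.30-fold and 2.76-fold. On day 2 the ratio of *Cdh1* to *Cdh2* was 106 in *Eomes* KO, 141 in *T* KO and 101 in dKO cells. In the *Smad4* line it was lower in KO cells, with 60.04 (WT) and 28.3 (KO) on day 1 and 80.0 (WT) and 45.7 (KO) on day 2.

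**Figure D2:**
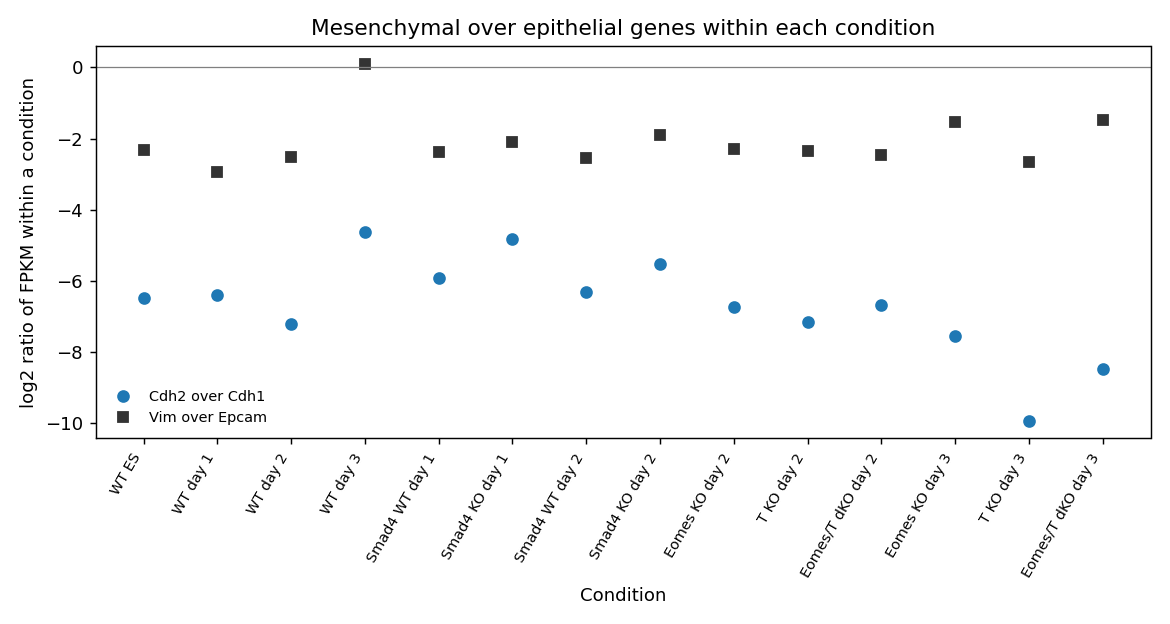
log2 ratio of *Cdh2* to *Cdh1* (circles) and of *Vim* to *Epcam* (squares) within each of the 14 conditions, 1 deposited value per gene and condition. WT day 3 has the highest value of both ratios, and *T* KO day 3 has the lowest ratio of *Cdh2* to *Cdh1* (-9.92).

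The WT cells of both ES lines give a scale for differences between lines in which none of the 3 genes was deleted. After scaling to a median ratio of 1, 1 of 10 members was called on day 1 (11.2% of genes examined) and none on day 2 (5.09%). *Twist1* was, as deposited, at FPKM 2.67 in Smad4 WT and 1.38 in F1G4 cells on day 1 (scaled log2 ratio 1.01), and at 3.50 and 2.81 on day 2. *Cdh1* was lower in the *Smad4* line on both days without reaching the threshold, at 74.0 against 147 on day 1 (log2 -0.94) and 99.8 against 165 on day 2 (log2 -0.71). *Cdh11* was at 0.943 in Smad4 WT and 0.159 in F1G4 cells on day 2. *Epcam* and *Vim* differed by log2 0.19 and 0.13 on day 2. A difference of the size seen for *Cdh1* therefore occurred between WT cells.

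*Smad4* KO cells were compared with the WT cells of their line to ask how the response to Bmp4 depends on Smad signaling. *Cdh2* rose in these cells on both days, and no member fell. Both days precede the step from day 2 to day 3, in which *Vim*, *Cdh2*, *Cdh11* and *Zeb2* rose in F1G4 WT cells. Whether that rise depends on *Smad4* therefore cannot be seen here. On day 1 *Cdh2* was at FPKM 1.23 (Smad4 WT) and 3.00 (*Smad4* KO) (log2 1.28, 0.99 to 1.57), and at 1.25 and 2.58 on day 2 (log2 1.05, 0.81 to 1.30). *Zeb1* rose on day 1, from 0.277 to 1.11 (log2 2.00, 1.482 to 2.54), and on day 2 was at 0.318 (WT) and 0.284 (KO). *Vim* did not pass the threshold, with 48.5 (WT) and 65.5 (KO) on day 1 and 44.8 (WT) and 78.5 (KO) on day 2 (log2 0.81, 0.74 to 0.88).

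*Cdh1* and *Epcam* were slightly higher in *Smad4* KO cells without being called. *Cdh1* was at 74.0 (WT) and 84.9 (KO) on day 1 and at 99.8 and 118 on day 2, and *Epcam* at 253 and 279 on day 1 and at 264 and 291 on day 2. *Twist1* differed least, with 2.67 (WT) and 2.83 (KO) on day 1 and 3.50 and 3.75 on day 2. *Zeb2* was at 0.313 and 0.485 on day 1 and at 0.898 and 1.32 on day 2, and *Cdh11* at 0.364 and 0.761 on day 1 and at 0.943 and 1.14 on day 2. *Snai1* and *Snai2* were at or below 0.141 in all 4 columns of this line, with at most 10 estimated fragments.

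In all, 2 of 10 members were called on day 1 (4.77% of all genes examined) and 1 on day 2 (5.77%). With 6 and 7 members examined on these days, these are 33.3% and 14.3% of them. Against the F1G4 WT cells instead, scaled to a median ratio of 1, *Cdh2* was no longer called on day 1 (log2 0.83). With a pseudocount of 0.1 it was just below the threshold on day 2 (0.99). Neural progenitor markers moved with *Cdh2*, a cadherin that neural progenitors also express. In *Smad4* KO cells 6 of 8 were above FPKM 1 on each day, beside 4 (day 1) and 3 (day 2) in Smad4 WT cells. Their sum without *Sox2*, which ES cells express, was 18.1 (WT) and 40.1 (KO) on day 1 and 33.8 and 79.4 on day 2. *Nes* made up most of the day 2 sums, at 30.0 (WT) and 58.1 (KO). The part of these markers in the level of *Cdh2* was not tested. The nascent mesoderm markers summed to 76.7 (WT) and 3.01 (KO) on day 2.

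The KO lines of *Eomes* and *T* ask which part of the response depends on these T-box factors. Their 3 comparisons on each day share the F1G4 WT samples, so a low or high WT value enters all of them. On day 2 *Twist1* and *Zeb2* were the only members called, both higher, and no mesenchymal gene was called, although *Cdh2* was 1.83-fold lower in *T* KO cells (log2 -0.87, -1.31 to -0.44). *Twist1* was at FPKM 5.09 in *Eomes* KO cells beside 2.78 in WT (log2 0.87, 0.60 to 1.14, not called), at 6.27 in *T* KO cells beside 2.89 (log2 1.12, 0.83 to 1.40) and at 5.75 in dKO cells beside 2.77 (log2 1.05, 0.79 to 1.32). *Zeb2* was at 1.33 in *Eomes* KO cells beside 0.550 in WT (log2 1.27, 1.04 to 1.51), at 1.49 in *T* KO cells beside 0.573 (log2 1.38, 1.12 to 1.63), and at 0.991 in dKO cells beside 0.549, where it was not examined.

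Thus 1 of 10 members was called in *Eomes* KO (7.52% of all genes examined), 2 in *T* KO (15.6%) and 1 in dKO cells (7.99%) on day 2. Of the 6, 6 and 5 members examined, these are 16.7%, 33.3% and 20%. Those shares are above those of all genes but rest on 1 or 2 genes per line. None of these 4 calls held against the day 2 WT cells of the *Smad4* line, in which *Zeb2* (0.898) and *Twist1* (3.50) were higher than in F1G4 cells, and against those cells *Cdh2* in *T* KO cells was called lower (log2 -1.04). For *Twist1* in dKO cells the call also ended after rescaling to TPM (log2 0.64) and after removing GC and length trends (0.88).

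*Vim* on day 2 was at 49.1 in *Eomes* KO cells beside 40.8 in WT, at 39.4 in *T* KO cells beside 42.4, and at 50.2 in dKO cells beside 40.7. *Cdh2* was at 1.41, 0.628 and 1.29 in the same KO lines beside 1.10, 1.15 and 1.10 in WT, and *Cdh11* was at most 0.290 in all of them. The member that came nearest to the threshold among those not called was *Cdh1* in *T* KO cells, at 88.8 beside 169.9 in WT (log2 -0.94). In *Eomes* KO cells *Cdh1* was at 149 (163 in WT) and in dKO cells at 131 (163 in WT). *Epcam* was at 240 in *Eomes* KO, 201 in *T* KO and 276 in dKO cells, beside 232, 242 and 232 in WT. The *T* KO column of day 2 is the one with the trend in GC content given above, and the part of that trend in the low *Cdh1* value was not tested.

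On day 3 *Vim*, *Cdh2* and *Cdh11* fell in all 3 KO lines, whereas *Cdh1* and *Epcam* were called in none. *Vim* was at FPKM 73.03 in *Eomes* KO cells beside 276 in WT (log2 -1.92, -1.97 to -1.87), at 51.4 in *T* KO cells beside 267 (log2 -2.38, -2.43 to -2.33), and at 81.2 in dKO cells beside 275 (log2 -1.76, -1.81 to -1.70). *Cdh2* was at 0.719 in *Eomes* KO cells beside 5.81 in WT (log2 -3.02, -3.34 to -2.69), at 0.182 in *T* KO cells beside 5.61 (log2 -4.95, -5.49 to -4.45), and at 0.592 in dKO cells beside 5.78 (log2 -3.29, -3.69 to -2.91). The fall of *Cdh2* in *T* KO cells, 30.8-fold, was the largest among all members and KO comparisons, and its interval did not overlap those of the other lines.

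*Cdh11* was at 0.144 in *Eomes* KO cells beside 1.15 in WT (log2 -2.99, -3.76 to -2.30), at 0.0627 in *T* KO cells beside 1.11 (log2 -4.14, -5.11 to -3.31), and at 0.309 in dKO cells beside 1.14 (log2 -1.88, -2.45 to -1.35). The values in KO cells rest on an estimated 18, 12 and 32 fragments. The WT cells of both ES lines differed in *Cdh11* by a scaled log2 ratio of 2.58 on day 2, which is larger than the fall in dKO cells. With a pseudocount of 1, *Cdh11* was no longer called in any of these lines (log2 -0.91, -0.99 and -0.71), and it did not reach FPKM 5 in any condition. For all 3 genes the lowest level was in *T* KO cells. For *Vim* and *Cdh11* dKO cells had the highest level of the KO lines, and for *Cdh2* *Eomes* KO cells had it.

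**Figure D3:**
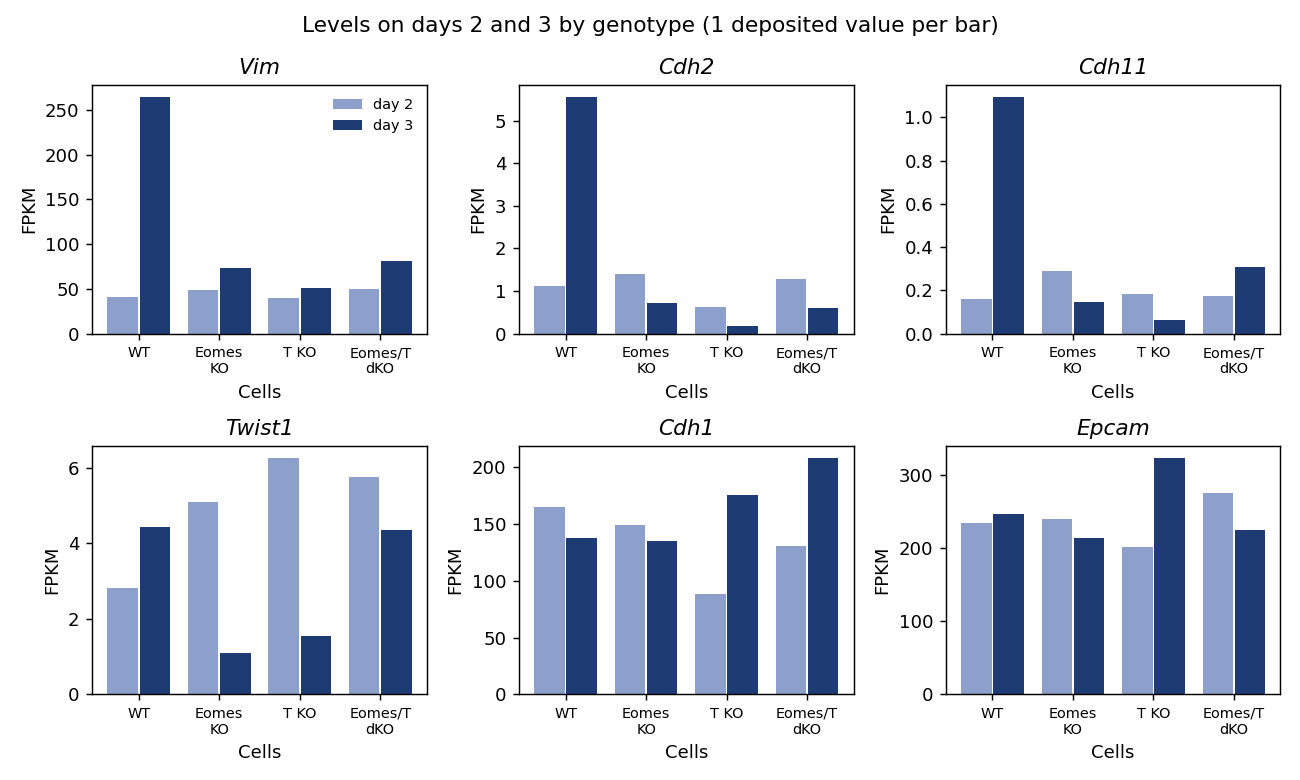
FPKM of 6 members in WT (time-course table), *Eomes* KO, *T* KO and dKO cells on day 2 (light bars) and day 3 (dark bars), 1 deposited value per bar. *Vim*, *Cdh2* and *Cdh11* stand out on day 3 in WT cells only, *Twist1* is lower on day 3 than on day 2 in the KO lines, and *Cdh1* and *Epcam* are present in every genotype.

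*Cdh1* on day 3 was at 135 in *Eomes* KO cells beside 144 in WT, at 176 in *T* KO cells beside 139 and at 209 in dKO cells beside 143 (log2 0.54, 0.52 to 0.57). *Epcam* was at 213, 324 and 225 in the same KO lines beside 258, 249.6 and 257 in WT. The largest of these differences, that of *Cdh1* in dKO cells, was smaller than the difference in *Cdh1* between the WT lines on days 1 and 2 (log2 -0.94 and -0.71). The *Smad4* line has no day 3 sample.

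The transcription factors differed between the KO lines on day 3. *Twist1* was at 1.11 in *Eomes* KO cells beside 4.64 in WT (log2 -2.07, -2.55 to -1.61), at 1.56 in *T* KO cells beside 4.48 (log2 -1.52, -1.86 to -1.19), and at 4.36 in dKO cells beside 4.62 (log2 -0.08, -0.36 to 0.21). It thus fell in both single KO lines and was within counting error of WT in the dKO line. *Zeb2* fell in *T* KO cells, from 2.41 to 0.783 (log2 -1.62, -1.82 to -1.43), and was at 3.01 in *Eomes* KO (2.50 in WT) and at 2.47 in dKO cells (2.48 in WT). *Snai2* rose in *Eomes* KO cells from 0.927 to 5.89 (log2 2.67, 2.33 to 3.02), its highest level in any condition, with an estimated 291 fragments. In *T* KO and dKO cells it was at 0.811 and 0.786 (0.893 and 0.921 in WT), so the rise was not seen in the dKO line that was derived from *Eomes* KO cells.

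*Snai1* stayed below FPKM 1 in every line on day 3, at 0.329 in *Eomes* KO, 0.975 in *T* KO and 0.458 in dKO cells, beside 0.611, 0.592 and 0.609 in WT. *Zeb1* was also not examined, at 0.261, 0.456 and 0.289 in the same KO lines, beside 0.737, 0.712 and 0.733 in WT. For *Zeb1* the counting intervals lay below 0 in all 3 lines, from -2.03 to -0.99 in *Eomes* KO, from -1.002 to -0.30 in *T* KO and from -1.89 to -0.81 in dKO cells.

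In all, 5 of 10 members were called in *Eomes* KO (4 lower and 1 higher; 16.4% of genes examined), 5 in *T* KO (all lower; 6.04%) and 3 in dKO cells (all lower; 11.0%) on day 3. Of the members, 8, 7 and 7 were examined in these lines, and 62.5%, 71.4% and 42.9% of those were called. The median log2 ratio of the 10 members, with a pseudocount of 0.1, was -0.97 in *Eomes* KO, -1.01 in *T* KO and -0.27 in dKO cells, beside -0.04, -0.01 and -0.03 over all genes examined. Of all genes called in *Eomes* KO cells on day 3, 45.0% were higher, and 70.3% after rescaling to TPM, whereas the split of the members was the same on both scales. The nascent mesoderm markers summed to 423 in WT cells and to 6.33 in *Eomes* KO, 25.3 in *T* KO and 13.4 in dKO cells. These sums include the deleted genes, with *T* at 319.9 and *Eomes* at 19.4 in WT cells, so the deletions themselves lower them. Of the other markers, *Fgf8* was at 55.3 in WT cells and at 1.24, 16.8 and 10.5 in the same KO lines. *Mixl1* was at 15.6 and at 0.0179, 0.105 and 0.173, and *Mesp2* at 0.0391 and at 0.0423, 0.0552 and 0. Embryo fibroblast markers, among them genes that mesenchymal cells express, summed to 15.8 in *Eomes* KO cells, the highest of the 14 conditions, with 5 of 12 above FPKM 1 and *Pdgfrb* (5.81) and *Loxl1* (2.96) leading. Their part in the rise of *Snai2* was not tested.

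**Figure D4:**
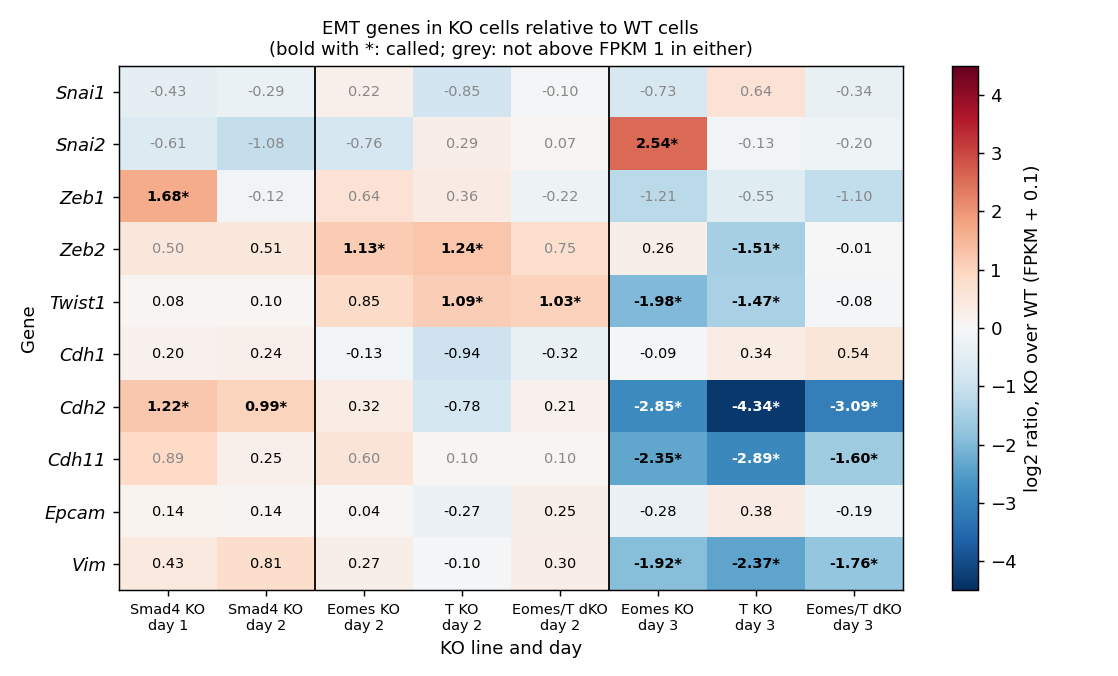
log2 ratio of KO to WT (FPKM + 0.1) of each member in the 8 KO comparisons, red for higher and blue for lower in KO cells. Bold values with an asterisk are called by the ratio without pseudocount, and grey values are of genes not above FPKM 1 in either condition. The day 3 columns are blue for *Vim*, *Cdh2* and *Cdh11*, and the *Cdh1* and *Epcam* rows are pale throughout.

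Placing both days of a line side by side shows how far the KO cells followed the WT course. These ratios combine columns of separate tables, whose shared WT columns differed by factors of 0.989 to 1.04 from the time course. Between days 2 and 3 the level of *Vim* was 6.43-fold higher on the later day in WT cells, 1.49-fold in *Eomes* KO, 1.30-fold in *T* KO and 1.62-fold in dKO cells. *Cdh2* was 4.98-fold higher on day 3 in WT cells and 1.96-fold, 3.45-fold and 2.18-fold lower on day 3 than on day 2 in the same KO lines. *Twist1* was 1.58-fold higher on day 3 in WT cells but 4.604-fold lower in *Eomes* KO, 4.03-fold lower in *T* KO and 1.32-fold lower in dKO cells. *Snai2* was 12.6-fold higher on day 3 in WT, 7.38-fold in *T* KO and 10.1-fold in dKO cells. In *Eomes* KO cells *Snai2* was listed at 0 on day 2, so no fold was taken.

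The 7 other EMT-related lists, from factors to matrix genes, hold 111 genes and place the members in a wider setting. Their counts are to be read beside the share of all genes called, which was 31.1% for WT cells between ES and day 3, 5.77% for *Smad4* KO cells on day 2, and 16.4%, 6.04% and 11.0% for *Eomes* KO, *T* KO and dKO cells on day 3. Of 17 other EMT transcription factors, 12 were examined in WT cells between ES and day 3, of which 6 rose and 2 fell (66.7% called). The homeobox genes *Msx2* (0.0165 to 9.21) and *Msx1* (0.0647 to 9.84) led the rise, and *Klf8* fell from 5.76 to 2.15. In *Smad4* KO cells on day 2, 3 of the 17 fell and 1 rose. On day 3, 3 fell and 1 rose in *Eomes* KO (2 and 2 after rescaling to TPM), 4 fell and none rose in *T* KO, and 3 fell and 1 rose in dKO cells. *Msx1* and *Lef1*, a mediator of Wnt signaling, fell in all 3 lines, and *Prrx2* rose from 2.17 to 5.95 in *Eomes* KO and from 2.16 to 6.78 in dKO cells.

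Of 30 epithelial junction and identity genes, 29 were examined in WT cells between ES and day 3, of which 14 rose and 3 fell (58.6% called), with a median log2 ratio of 0.85 (-0.02 over all genes examined). The keratins led the rise: *Krt18* was at FPKM 15.4 in ES cells and 846 on day 3, *Krt8* at 12.4 and 619, and *Krt19* at 2.21 and 144. The claudin genes *Cldn3* (1.25 to 11.8), *Cldn4* (46.6 to 99.7), *Cldn6* (39.3 to 96.3) and *Cldn7* (8.69 to 36.2) rose as well, and so did *Ocln*, *Dsp* and *Crb3*. The epithelial transcription factor *Grhl2* fell from 18.6 to 7.57. Keratins 8, 18 and 19 are made by simple epithelia, including trophoblast. Most genes of the list were not called in KO cells on day 3: 3 of the 30 fell and 1 rose in *Eomes* KO (2 and 2 after rescaling to TPM), none was called in *T* KO, and 1 fell and 2 rose in dKO cells. These are 13.8%, 0% and 10.3% of the genes examined, beside 16.4%, 6.04% and 11.0% of all genes. The counts in *Eomes* KO and dKO cells are thus near the share of all genes. *Rab25* (5.12 to 1.31) and *Spint2* (28.1 to 10.4) fell in *Eomes* KO cells and *Tjp3* (6.35 to 2.30) in dKO cells. *Esrp2*, a splicing factor of epithelial cells, rose in *Eomes* KO (2.48 to 5.56) and dKO cells (2.46 to 5.34), and *Perp*, a desmosome gene, from 36.0 to 78.8 in dKO cells. In *Smad4* KO cells on day 2 the only call was a rise of *Cldn3* from 2.79 to 6.26.

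Of 20 mesenchymal and matrix genes, 14 were examined in WT cells between ES and day 3, of which 8 rose and 1 fell (64.3% called, median log2 ratio 2.92). The actin-binding gene *Tagln* (9.00 to 222) and *Tgfbi* (0.282 to 6.96) led, and the metalloproteinase inhibitor *Timp1* fell from 20.8 to 7.22. In contrast to *Vim* and *Cdh2*, this list did not fall as a whole in KO cells on day 3. In *Eomes* KO cells 2 fell and 5 rose (1 and 6 after rescaling to TPM), in *T* KO cells 4 fell and none rose, and in dKO cells 2 fell and 2 rose, which is 46.7%, 28.6% and 26.7% of the genes examined. Fibronectin (*Fn1*) fell in *T* KO (18.2 to 4.26) and dKO cells (18.7 to 8.03) and was at 22.1 in *Eomes* KO cells (18.8 in WT). The smooth muscle genes *Acta2* and *Tagln* rose in dKO cells, from 11.1 to 80.1 and from 230.0 to 936. *Acta2* also rose in *Eomes* KO cells, to 35.9. *Timp1* rose in *Eomes* KO cells (7.52 to 21.4). In *Smad4* KO cells 2 of the list fell, among them *Mmp14*, a membrane metalloproteinase (14.7 to 5.10).

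Of 10 basement membrane genes, 2 rose and 1 fell in WT cells between ES and day 3 (30% called, near the 31.1% of all genes). The collagen IV genes *Col4a2* (0.623 to 13.3) and *Col4a1* (1.18 to 11.9) rose, and the laminin gene *Lama1* fell from 7.79 to 0.399. In *Eomes* KO cells 3 rose on day 3 (5 after rescaling to TPM), among them *Hspg2* (7.11 to 20.5) and *Col4a1* (12.4 to 26.4), none was called in *T* KO cells, and *Nid2* fell in dKO cells (23.3 to 6.77). All 3 that rose in *Eomes* KO cells belong to the column with the trend in transcript length given above, and the part of the trend in these values was not tested.

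Of 15 other classical cadherins, only 3 were examined in WT cells between ES and day 3, of which *Cdh10* rose (1.04 to 2.16), like *Cdh2*, and P-cadherin (*Cdh3*) fell. *Cdh3* went from 9.57 in ES cells to 4.44 on day 3 (log2 -1.11, and -0.98 after rescaling to TPM, where it was not called). It rose on day 3 in *Eomes* KO (4.63 to 12.04, log2 1.38), *T* KO (4.48 to 9.90, log2 1.15) and dKO cells (4.61 to 12.3, log2 1.42), and was the only cadherin of this list called in these lines. Of 6 catenins, which link cadherins to the cytoskeleton, 3 were examined in WT cells between ES and day 3 and none was called. In the KO lines on their last day, *Ctnna2* rose in *Smad4* KO cells (0.344 to 1.02) and *Ctnnd2* in *Eomes* KO cells on day 3 (0.526 to 1.10), both just above FPKM 1. *Ctnnb1*, which encodes β-catenin, was at 295 in ES cells and 307 on day 3.

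Of 13 regulators of EMT at gastrulation, 7 rose and 1 fell in WT cells between ES and day 3 (61.5% called). The ligand genes *Fgf8* (0.0172 to 55.3) and *Wnt3* (0.0794 to 25.0) led, and *Fgf4* fell from 71.0 to 3.16. *Fgf8* fell in *Smad4* KO cells on day 2 (19.8 to 0.154) and on day 3 in *Eomes* KO (57.6 to 1.24), *T* KO (55.7 to 16.8) and dKO cells (57.4 to 10.5). *Wnt3* fell in *Eomes* KO (26.1 to 3.00), *T* KO (25.3 to 7.47) and dKO cells (26.0 to 9.72), and *Nodal* in *Smad4* KO cells (32.4 to 2.53). As at most 2 falling genes per list and line were named, a further gene that fell in *Smad4* KO cells is not named here. The study reports a near-complete loss of *Wnt3* expression in *Smad4* KO cells, so no contrast between the lines is meant. In all, 3 of the 13 were called in *Smad4* KO, 5 in *Eomes* KO (4 lower and 1 higher, 3 and 2 after rescaling to TPM), 3 in *T* KO and 2 in dKO cells, which is 25%, 38.5%, 23.1% and 15.4% of the genes examined. *Fgf8* thus fell on day 3 in the lines in which *Cdh2* fell, and on day 2 in *Smad4* KO cells, in which *Cdh2* rose. As the *Smad4* line has no day 3 sample, these lines cannot be compared on the same day.

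**Figure D5:**
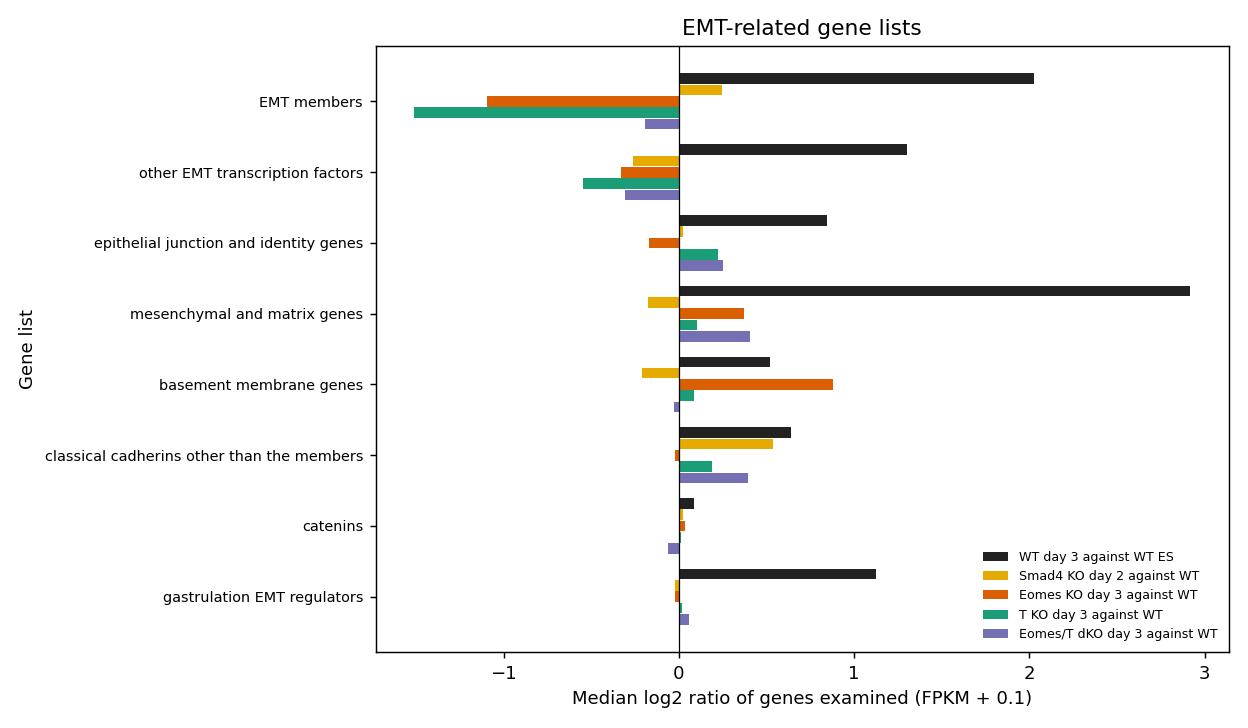
Median log2 ratio (FPKM + 0.1) of the genes examined in each list, for WT day 3 against ES cells and for each KO line on its last day. The members (top) are the list with the lowest medians in *Eomes* KO (-1.10) and *T* KO cells (-1.51), and mesenchymal and matrix genes have the highest median in the WT course (2.92). In dKO cells the other EMT transcription factors are lower (-0.31) than the members (-0.19). Genes above FPKM 1 in WT cells only are among those examined, and over all 10 members the medians were -0.97 in *Eomes* KO and -1.01 in *T* KO cells.

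Genes whose pattern was most like that of a member were ranked by Pearson's r of log2(FPKM + 0.1) over the 14 conditions, among 9284 genes with FPKM of at least 5 in at least one condition. The conditions share cell lines and stages, so r is a description. *Vim* was most like *Cyp26a1*, which encodes a retinoic acid-degrading enzyme (r = 0.86), *Usp18* (0.86) and *Rtp4* (0.84), which like *Vim* had their highest level in WT cells on day 3. *Cdh2* was most like *Nmb* (0.88), *Amph* (0.86) and *Arl4d* (0.80), again highest in WT cells on day 3. *Snai2* was most like *Tac2* (0.94), *Mbnl3* (0.93) and *Rarres2* (0.93), which were highest in *Eomes* KO cells on day 3. *Twist1* was most like *Derl2* (0.90), *Tmem243* (0.90) and *Vamp3* (0.88), *Cdh1* like *Dctn6* (0.90), *Gpatch11* (0.89) and *Tubgcp3* (0.87), and *Epcam* like *Hmgn5* (0.89), *Gfod2* (0.82) and *Zfp212* (0.81). The other members never reached FPKM 5. Among the members themselves, the highest r was that of *Snai1* with *Snai2* (0.73), both of which were low, followed by *Snai2* with *Zeb2* (0.62), *Cdh1* with *Snai1* (0.61), *Vim* with *Zeb2* (0.61) and *Cdh2* with *Cdh11* (0.61). *Cdh1* and *Cdh2* had an r of -0.31, and *Epcam* and *Vim* an r of 0.04.

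The members lie on 6 chromosomes in the GRCm38 annotation of RefSeq. *Vim* lies on chromosome 2 from 13574311 to 13582826, *Zeb2* from 44983512 to 45117442 and *Snai1* from 167538195 to 167542814 of the same chromosome, *Twist1* on chromosome 12 from 33957671 to 33959831, *Snai2* on chromosome 16 from 14705852 to 14709395, and *Epcam* on chromosome 17 from 87635979 to 87651127. *Cdh11* lies on chromosome 8 from 102632095 to 102785493 and *Cdh1* from 106603350 to 106670247. *Zeb1* lies on chromosome 18 from 5591327 to 5775468 and *Cdh2* from 16588877 to 16809246. For the cadherins on chromosome 8, the median log2 ratio of all genes on the chromosome is given beside them. It was 0.17 to 0.23 in all 6 comparisons of the *Eomes* KO, *T* KO and dKO lines and near 0 in both *Smad4* KO comparisons (-0.0036 and -0.015). For chromosome 18, which holds *Zeb1* and *Cdh2*, the median was -0.21 in *Eomes* KO cells on day 3. In the other KO comparisons it was -0.092 to -0.027. With that median removed, *Cdh2* in *Eomes* KO cells on day 3 was at log2 -2.81. With the median of its chromosome removed, *Cdh1* in *T* KO cells on day 2 passed the threshold (log2 -1.14), and no other call of a member changed.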

How the data were processed

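RNA-seq of total RNA from 18 samples was analysed; the ATAC-seq and ChIP-seq samples of the study were not analysed here. Strand-specific ScriptSeq libraries had been sequenced paired-end. The authors trimmed reads with cutadapt 2.9, aligned them with HISAT2 2.1.0 to mm10 (GRCm38), and deposited FPKM from Cuffdiff 2.2.1, run with correction for multi-mapping reads and sequence bias and without effective length correction. Each of the 9 deposited tables holds 1 FPKM value per gene and condition, so replicate spread was lost before deposit. Very low values may depend on the bias correction, and genes sharing sequence depend on how reads were divided.

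Ratios were taken within a table, without a pseudocount for calls and with 0.1 added for medians and plots. List genes named in the text were the up to 2 highest and 2 lowest ratios among called genes whose higher FPKM reached 5, in WT cells from ES to day 3 and in each KO line on its last day. Other list genes (among them *Krt8*, the claudin genes, *Ocln*, *Dsp*, *Crb3*, *Pdgfrb*, *Loxl1*, *Cdh10*, *Ctnna2*, *Ctnnd2* and *Ctnnb1*, and further values of the genes so named) were chosen after their values were seen. Some list genes that this rule names are not reported here. The members and lists were chosen with earlier results of these data known. Fragments were estimated as FPKM times RefSeq mRNA length divided by the step of low values (within 0.15 of a whole multiple), with exact Clopper-Pearson intervals. The scripts were tested on simulated data. Python 3.11.15, numpy 2.4.6, pandas 2.3.3 and scipy 1.17.1 were used.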

Additional observations from a re-analysis of the deposited data

Results flagged for a closer look

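*Zeb2* and *Twist1* were called in opposite directions in *T* KO cells on the 2 days. *Zeb2* was higher than in WT cells on day 2 (log2 ratio 1.38) and lower on day 3 (-1.62). *Twist1* was higher on day 2 (1.12) and lower on day 3 (-1.52). The difference between the days was not tested, as each value rests on 1 deposited column. The day 2 values were 0.68 for *Zeb2* and 0.79 for *Twist1* against WT cells of the *Smad4* line, and 1.34 and 1.00 after removal of GC and length trends.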

How the results depend on the processing

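No paired analysis was possible because the columns pool their condition and carry no replicate numbers, and for the same reason no replicate could be left out. Over 31 calls of members and 275 alternative values, no direction was reversed, and 42 values were no longer called, 18 of them because FPKM above 5 was required and 14 with a pseudocount of 1. The number of members called moved by more than 1.5 times as follows, in the order of comparisons from WT ES to day 1 onward. With no minimum FPKM it was 3 (ES to day 1), 5 (day 1 to 2), 7 (day 2 to 3), 5 and 2 (*Smad4* KO days 1 and 2) and 2 (*Eomes* KO day 2). With FPKM above 5 required it was 0 (ES to day 1, day 1 to 2, *Smad4* KO on both days, *Eomes* KO day 2), 2 (day 2 to 3 and ES to day 3), 3 (*Eomes* KO day 3), 1 (*T* KO day 2) and 2 (*T* KO day 3). With a pseudocount of 1 it was 0 in both early WT steps, both *Smad4* KO comparisons and all day 2 comparisons of the F1G4 lines, and 3 in *T* KO cells on day 3. With a pseudocount of 0.1 it was 0 from day 1 to 2 and in *Smad4* KO cells on day 2. At a 1.5-fold threshold it was 2 in both early WT steps, in *Smad4* KO cells on day 2 and in *Eomes* KO cells on day 2, and 4 in *T* KO cells on day 2. Against WT of the other line it was 3 (*Smad4* KO day 2), 0 (*Eomes* KO day 2), 1 (*T* KO day 2) and 0 (dKO day 2). Rescaling to TPM gave 0 in dKO cells on day 2. Removal of GC and length trends, an alternative chosen after seeing the data, gave 0 from day 1 to 2 and in dKO cells on day 2. For basement membrane genes in *Eomes* KO cells on day 3, 3 were called and 5 after rescaling to TPM. Of the wider lists, 12 genes were called in *Smad4* KO cells on day 2 and 6 with a pseudocount of 1. The cause was not tested beyond what each setting itself removes. Rescaling to TPM shifted all log2 ratios by -0.41 in dKO and -0.22 in *Eomes* KO cells on day 2, by 0.28 in *Eomes* KO cells on day 3, and by at most 0.13 elsewhere in either direction. The falls of *Vim* and *Cdh2* on day 3 and the rise of *Snai2* in *Eomes* KO cells were called under every alternative run for them. The comparison against WT of the other line could not be run for day 3, as the *Smad4* line has no day 3 sample. Of the 18 genes most like a member, 14 were also found with a pseudocount of 1. Depth limits *Snai1* and *Snai2*, which rest on few fragments before day 3.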

Other observations

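Markers that trophoblast and the simple epithelia around the embryo share with other tissues were higher late in the course, as were the keratins. *Krt7* was at FPKM 0.882, 2.31, 10.2 and 46.4 from ES cells to day 3 of the WT course, and at 70.4 in *Eomes* KO, 78.6 in *T* KO and 113 in dKO cells on day 3. *Hand1*, which lateral mesoderm also expresses, was at 20.5 in WT cells on day 3 and at 62.9, 29.5 and 32.2 in the same KO lines. The 7 trophoblast markers summed to 83.4 in WT cells on day 3 and to 145, 128 and 155 in the KO lines. *Krt7* and *Hand1* made up most of these sums, while *Cdx2* of the same list was lower in the KO lines (0.439, 0.498 and 1.96) than in WT cells (7.30), and *Elf5*, a defining trophoblast gene, was listed at 0 in WT cells at every stage and reached at most 0.0125 in any condition. *Tfap2c* was at 16.99 in ES cells and 6.74 on day 3 in WT cells.

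Neural markers were at different levels in the KO lines on day 3. *Sox1* was at 0.192 in WT cells on day 3, and at 5.75 in *Eomes* KO, 0.914 in *T* KO and 6.49 in dKO cells. *Pax6* was at 0.0469 in WT and at 0.691, 0.141 and 4.03 in the same KO lines. *Fabp7* of the same list went the other way, from 9.53 in WT to 0.376, 0.912 and 0.908, and *Nes* and *Sox3* were lower in *Eomes* KO cells (18.4 and 1.19) than in WT cells (25.5 and 2.31). The sum of the 8 markers without *Sox2* was 37.6 in WT and 26.4, 41.7 and 38.6 in the KO lines.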
